A study of Homo sapiens with 2 samples.

Results

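Histones are the proteins around which DNA is wrapped in the nucleus, and the histone genes were examined here in HSC-3, an established cell line from a human oral squamous cell carcinoma. One library came from cells kept with the solvent, 0.1% DMSO, and the other from cells given FIN56 at 1 µM for 48 h; the labels give a time only for the FIN56 library, and both cultures were grown in DMEM with fetal bovine serum. FIN56 induces ferroptosis, an iron-dependent cell death driven by lipid peroxides, through loss of the peroxidase GPX4. The genes were chosen by symbol (H1-, H2AC, H2BC, H3C, H3-, H4C, H2AX, H2AZ, H2AJ and MACROH2A with a digit or nothing after it), and pseudogenes as well as 2 antisense or divergent transcripts were left out. This gave 81 genes of the 60616 in the tables, of which 68 were replication-dependent and 13 were replacement histones. The family was picked because its FPKM ratios in these same libraries had stood out, so all ratios below are a description and no test was made on them. With 1 library per condition there is no replicate check of any difference.

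The replication-dependent genes supply the core histones H2A, H2B, H3 and H4 and the linker H1 during DNA synthesis. They have no introns, sit in clusters, and make mRNAs that end in a short stem-loop in place of a poly(A) tail. The stem-loop is bound by SLBP, and the mRNA is cut just after it with the help of the U7 snRNP, so that these mRNAs come and go with S phase. Replacement histones, such as H3.3, H2A.Z and macroH2A, are made throughout the cell cycle from ordinary polyadenylated mRNAs of single genes. The libraries were made with a stranded mRNA kit, per the labels, a kind that selects poly(A) RNA, so an mRNA that ends at the stem-loop is caught poorly, and a higher value can come from more mRNA of a gene or from a larger share of it with a poly(A) tail. These cannot be told apart here.

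The 16-base stem-loop is what divides the groups in sequence, and examples are therefore shown with the stem-loop in capitals and 5 bases on either side, as DNA of the coding strand in GRCh38. H2BC12 and H4C15 had the most counts of their class, and H2AC8 had the highest FPKM ratio of the histone genes with at least 100 counts. H1-2 is the leading replication-dependent linker gene, and H2AX and H2AJ are the replacement histones with such a sequence.
H2BC12: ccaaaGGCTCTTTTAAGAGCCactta
H2AC8: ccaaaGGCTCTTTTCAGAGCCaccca
H1-2: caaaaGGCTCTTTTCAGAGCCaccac
H4C15: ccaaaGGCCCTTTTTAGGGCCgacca
H2AX: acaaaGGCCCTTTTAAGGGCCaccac
H2AJ: gcaaaGGCCCTTTTCATGGTCgtccc
A stem-loop with no mismatch to the consensus was found within 150 bases after the stop codon in 68 of 68 replication-dependent genes, between 22 and 67 bases after the stop. Of the 13 replacement genes, H2AX had one with no mismatch, 49 bases after the stop, and H2AJ had one with 2 mismatches. The 68 genes held 10 distinct stem-loops, and the stem with 3 C in a row (GGCCC, paired with GGGCC) was present in 14 of 14 H4 genes and in 0 of the 54 others.

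The DMSO library held 70184517 expected counts in all and the FIN56 library 73062209. The cells carried the epithelial markers of the line, with 8 of 8 (KRT5, KRT14, KRT17, EPCAM, CDH1, TP63, SFN, LAMB3) at an FPKM of 43.8 or more in both libraries, whereas PTPRC, CD3E, DES, ALB and HBB had 0 counts, PECAM1 had 1 count in all, and COL1A1 had 919 and 562 counts. A ratio below is FIN56 over DMSO. The FPKM ratio (fragments scaled for gene length and library size) uses the deposited FPKM of genes above 0 in both libraries and is read against 1.5, the cut the study set for higher genes, and against 1/1.5, its mirror for lower genes. The count ratio uses expected counts scaled by the library totals and carries an exact 95% interval that covers counting error only.

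Replication-dependent histone RNA made up a larger share of the FIN56 library than of the DMSO library, whereas the summed replacement histones were level. Over the 68 replication-dependent genes, 143 counts per 1000000 (CPM) were found with DMSO and 311 with FIN56, a ratio of 2.18 (95% interval 2.13 to 2.23). Over the 13 replacement genes, the values were 2470 and 2476 CPM, a ratio of 1.00 (0.996 to 1.01). H2B had the widest step among the classes, from 56.1 to 151 CPM (ratio 2.69, 2.60 to 2.79). H1 had 546 and 1462 counts in all (ratio 2.57, 2.33 to 2.84). H4 stood at 36.2 and 66.9 (ratio 1.85, 1.76 to 1.94), and H2A at 33.3 and 60.3 (ratio 1.81, 1.72 to 1.90). H3 had the smallest ratio of the 5 classes, with 9.43 and 12.6 CPM (ratio 1.34, 1.21 to 1.48). Of these sums, H2BC12 alone held 19.3% of the replication-dependent counts with DMSO and 27.2% with FIN56, and without it the ratio of the remaining 67 genes was 1.96 (1.91 to 2.02).

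**Figure D1:**
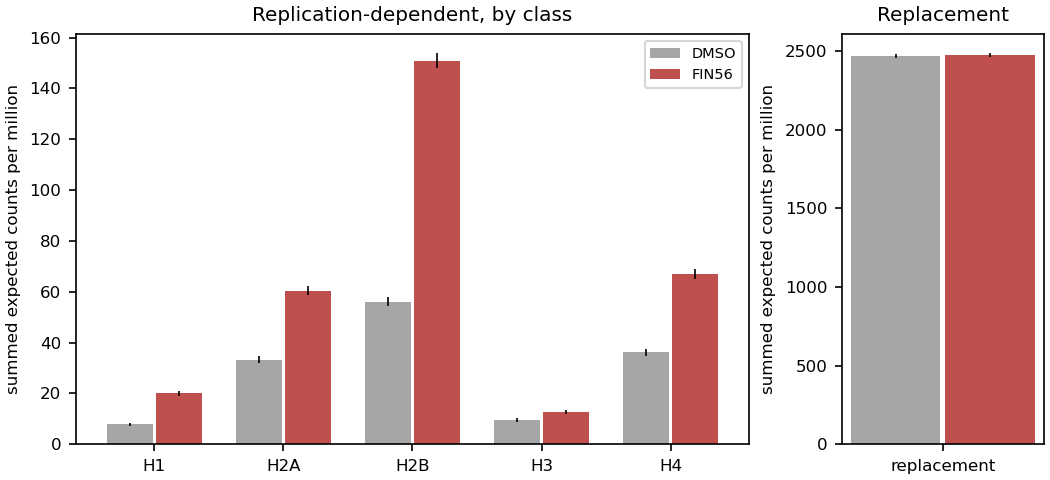
Summed expected counts per 1000000 (CPM) of the replication-dependent histone genes by class (left) and of the replacement histones (right) in the DMSO (gray) and FIN56 (red) libraries; bars start at 0 and the lines are exact 95% Poisson intervals of the sums, for counting error only. The H2B bars stand at 56.1 and 151, while the replacement bars stand at 2470 and 2476.

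Per gene, 66 of the 81 histone genes had an FPKM above 0 in both libraries. Of these, 23 had a ratio of 1.5 or more, against 14.7% of all 24454 genes tested, and 10 had a ratio of 1/1.5 or less, against 17.3% of all genes. The 23 were replication-dependent in every case, of 55 measured, and of the 10 lower ones 9 were replication-dependent and 1 (H1-10) was a replacement histone. The median log2 FPKM ratio was 0.49 over the 55 replication-dependent genes and -0.24 over the 11 replacement genes, beside 0 over all genes. On the rlog scale, which pulls low counts together, 3 histone genes stood at 1.5 or more and 0 at 1/1.5 or less.

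Most of the lower ratios came from genes with almost no reads. In all, 32 replication-dependent genes had fewer than 20 expected counts over the libraries, 6 of them had 0 counts in both, and 7 had counts in 1 library only. With fewer than 20 counts, 20 histone genes had a ratio at all, of which 4 were at 1.5 or more and 6 at 1/1.5 or less, and the interval of the count ratio left out 1 in 0 of the 20. H2AC7 had 0 counts with DMSO and 17.2 with FIN56, with a lower limit of 3.96 for the count ratio, and H1-6, the testis linker histone, had 0 and 7 counts, with a lower limit of 1.38. Among the 36 histone genes with at least 100 counts together, 26 were replication-dependent. Of these 26, 15 had an FPKM ratio of 1.5 or more (5.37% of the 14247 genes at this depth did) and 2 had one of 1/1.5 or less (8.85% of the genes at this depth). The median log2 FPKM ratio was 0.93 for the 26 replication-dependent genes, -0.16 for the 10 replacement genes and 0.023 for all genes at this depth. The interval of the count ratio lay above 1 for 21 of the 26 and below 1 for 2, against 36.3% and 35.7% of the genes at this depth (23.4% and 23.1% of all genes tested). Among the 26, H2AC18 with H2AC19, H3C14 with H3C15, H4C11 with H4C12 and H4C14 with H4C15 are pairs with the same coding bases. Reads are split within such a pair, so its genes are not separate measurements. Around the thresholds, H2AC13 was nearest inside 1.5 with an FPKM ratio of 1.66 and H3C14 nearest outside with 1.49, while H3C8 was nearest inside 1/1.5 with 0.524 and H2AZ2 nearest outside with 0.747. The estimated counts of H2AC13, 32.4 and 55.9, become whole when added to those of H2AC14, 9.56 and 3.13. The place of H2AC13 inside 1.5 therefore rests on an uncertain split of reads.

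**Figure D2:**
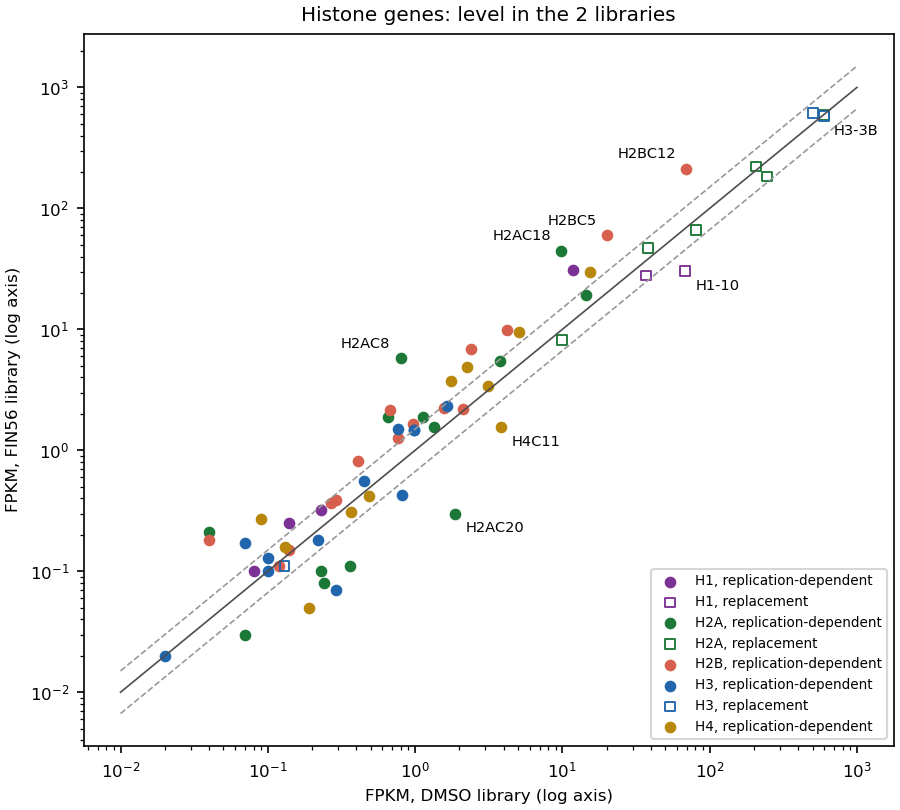
FPKM of the 66 histone genes above 0 in both libraries, DMSO on the x axis and FIN56 on the y axis, both on log axes; filled circles are replication-dependent and open squares replacement genes, the solid line marks equal values and the dashed lines ratios of 1.5 and 1/1.5. H2BC12 lies at 69.6 and 214, above the upper line, and H1-10 at 68.2 and 30.4, below the lower one.

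Among the linker histones, H1-2 (a somatic linker histone whose gene is known to make a polyadenylated form too) was the only one of 6 replication-dependent H1 genes with over 100 counts. H1-2 lies at chr6:26055740-26056470 (GRCh38, minus strand, 1 exon). It stood at 11.8 FPKM in DMSO and at 30.8 FPKM in FIN56 (ratio 2.61), and its 522 and 1421 counts gave a count ratio of 2.62 (2.36 to 2.90). H1-4 had 11 and 16 counts and H1-5 had 7 and 13, so that both intervals held 1. H1-3 had 4 and 5 counts, and H1-1 had 2 and 0.

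Of the 16 replication-dependent H2A genes, 5 had at least 100 counts, and 4 of the 5 had a count interval above 1. H2AC8 (chr6:26216921-26217437, plus strand) had the highest FPKM ratio of all named histone genes, with an FPKM of 0.80 and 5.77 and a ratio of 7.21. Its 23 and 173 counts give a count ratio of 7.23 with a wide interval of 4.66 to 11.7. H2AC18 (chr1:149842218-149842750, minus strand) stood at 9.84 and 44.6, a ratio of 4.53, and H2AC19 at 3.80 and 5.47, a ratio of 1.44. These 2 genes have the same 390 coding bases, so reads of one can be given to the other by the estimate. Their sum went from 435 to 1652 counts (ratio 3.65, 3.28 to 4.06). H2AC20, farther along the same chromosome 1 cluster, went the other way, from 1.87 to 0.30 FPKM (51.8 and 8.66 counts, ratio 0.160), and its estimated counts became whole only when added to those of H2AC18 and H2AC19, at 487 and 1661 for the 3 genes. The summed ratio of the 3 was 3.28 (2.96 to 3.63), and the split among them is uncertain. Of the replication-dependent H2A genes, H2AC6 had the most counts, 1549 and 2182. Its FPKM of 14.4 and 19.4, a ratio of 1.35, lay above that of H2AC18 with DMSO and below it with FIN56. H2AC11 had 1.34 and 1.55 (ratio 1.16), with a count interval of 0.955 to 1.40 that holds 1. Of the remaining H2A genes with at least 20 counts, H2AC17 had 18 and 53 counts and H2AC13 had 32.4 and 55.9.

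Of the 17 H2B genes, 9 had at least 100 counts, 8 of the 9 had a count interval above 1, and 7 had an FPKM ratio of 1.5 or more. H2BC12 (chr6:27146361-27146855, minus strand, 1 exon) was the most abundant replication-dependent histone gene in both libraries, at an FPKM of 69.6 and 214, and its 1935 and 6186 counts gave a ratio of 3.07 (2.92 to 3.23). H2BC5 (chr6:26158122-26171349, plus strand) was second in both, at 20.2 and 60.1 FPKM, with 945 and 2972 counts and a count ratio of 3.02 (2.81 to 3.25). H2BC4 stood at 4.20 and 9.86 FPKM (ratio 2.35), and H2BC11 at 2.39 and 6.87 (ratio 2.87). H2BC8 stood at 0.76 and 1.26 (ratio 1.66), and H2BC18 at 0.41 and 0.82, with a count ratio of 2.23 (1.55 to 3.30). For H2BC15 the scales differed in size, since the FPKM of 0.68 and 2.17 gave a ratio of 3.19 and the 103 and 221 counts one of 2.05; the effective length implied by the deposited values was 2168 bases with DMSO and 1394 with FIN56. H2BC21 had a ratio of 1.44 (1.56 and 2.24 FPKM). H2BC9 was level, at 2.12 and 2.21 FPKM, with a count ratio of 1.04 (0.884 to 1.22).

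The 15 replication-dependent H3 genes encode 4 distinct proteins and were low throughout. H3C6 had an FPKM of 0.77 and 1.49 and a ratio of 1.94, and it was the only 1 of the 5 H3 genes with at least 100 counts at 1.5 or more. H3C10 stood at 1.64 and 2.31 (ratio 1.41). H3C14 and H3C15 share all 408 coding bases and were given equal values, 0.99 and 1.48 each, and their summed 217 and 337 counts gave a ratio of 1.49 (1.25 to 1.78). H3C8 (chr6:26270918-26271413, minus strand) was lower with FIN56, at 0.82 and 0.43 FPKM, with 133 and 72 counts and a count ratio of 0.520 (0.385 to 0.698). H3-4, the testis H3 gene, had 0 counts.

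The 14 H4 genes encode 2 distinct proteins. H4C15 (chr1:149854045-149861159, minus strand) led the class, with an FPKM of 15.4 and 29.9 and a ratio of 1.94, and H4C14 stood at 5.09 and 9.56, a ratio of 1.88. The coding bases of both are the same, and together they had 1985 and 3987 counts, a ratio of 1.93 (1.83 to 2.04). H4C8 had an FPKM of 2.25 and 4.93 (ratio 2.19), and H4C9 had 1.76 and 3.71 (ratio 2.11). H4C11 was lower with FIN56, at 3.85 and 1.56 FPKM (ratio 0.405), and H4C12 was at 3.13 and 3.37 (ratio 1.08). These 2 also share their coding bases, and their sum of 142 and 104 counts gave a ratio of 0.704 (0.541 to 0.912), so the pair was lower as a whole while its split is uncertain. H4C5, with 48 and 43 counts, had a ratio of 0.857.

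**Figure D3:**
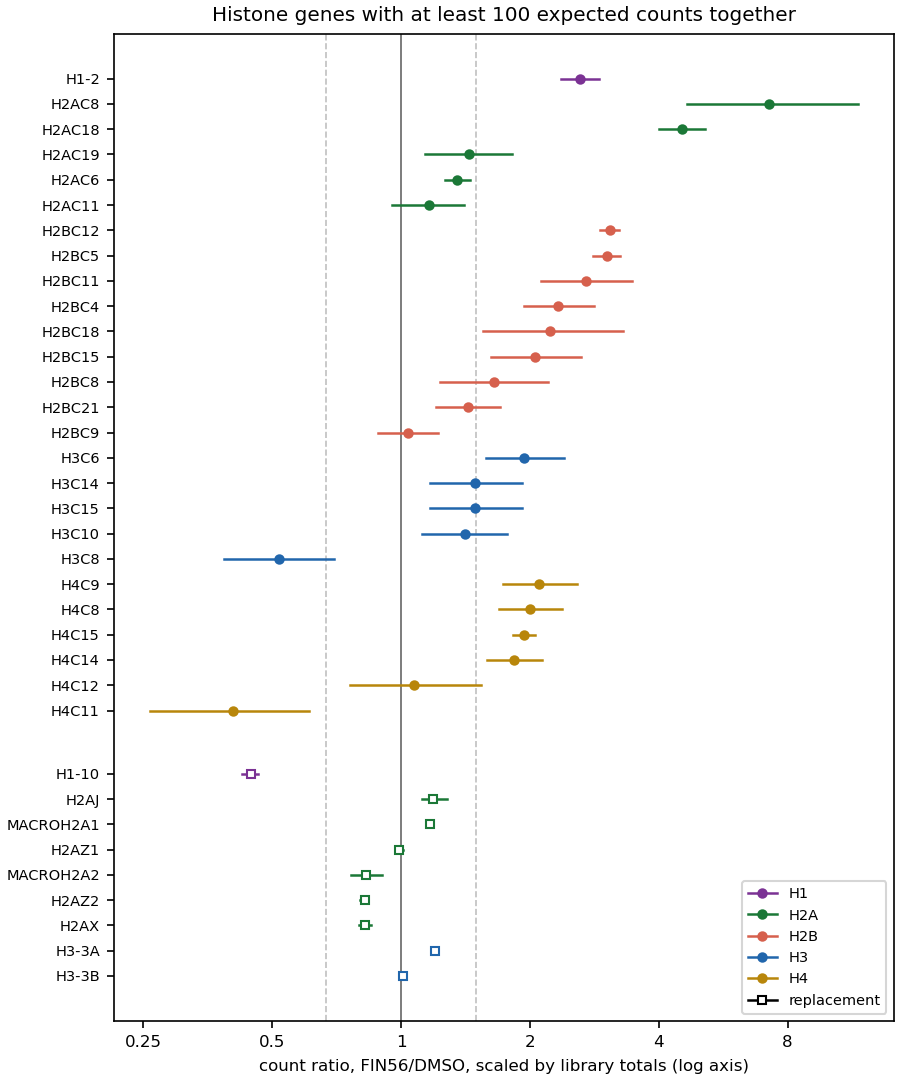
Count ratio, FIN56 over DMSO, scaled by library totals (log axis), of 35 histone genes with at least 100 expected counts together; points are the ratios, lines their exact 95% counting intervals, filled circles replication-dependent and open squares replacement genes, and dashed lines mark 1.5 and 1/1.5. Of the 26 replication-dependent genes, 21 have intervals above 1, and those of H3C8 and H4C11 lie below 1.

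In these libraries the replacement histones had far higher values and moved less. They held 92.6% of the summed histone FPKM with DMSO and 83.2% with FIN56. An mRNA that ends at the stem-loop is caught poorly, so these shares describe the libraries and not the mRNA in the cells. H3-3A and H3-3B encode the same 136 residues of H3.3, the H3 form placed outside DNA synthesis, from coding sequences that differ at 88 of 408 bases. H3-3A had an FPKM of 504.5 with DMSO and 613 with FIN56 (ratio 1.21). H3-3B had 595 and 579, a ratio of 0.975 whose side of 1 changed with the scaling (log2 -0.04 by FPKM and 0.0090 by library totals). H2AZ1, one of the genes of the H2A.Z variant found at promoters, had 599 and 594 FPKM, a ratio of 0.992, whose side of 1 also changed with the scaling (0.020 in log2 by TPM). H2AZ2, whose protein differs from that of H2AZ1 at 3 of 128 residues, had 246 and 184 FPKM (ratio 0.747). Its count ratio was 0.822 (0.804 to 0.839), with an implied effective length of 1077 bases in DMSO and 1185 in FIN56. MACROH2A1, the large variant of silent chromatin, had 206 and 222 (ratio 1.08), and its relative MACROH2A2 had 9.92 and 8.17 (ratio 0.824). The count ratio of MACROH2A1 was 1.17 (1.15 to 1.18), with implied lengths of 1854 and 2006 bases. H2AX, which is phosphorylated at DNA breaks and makes both kinds of mRNA, had 80.6 and 65.9 FPKM, a ratio of 0.818. H2AJ was higher, at 38.3 and 47.1 FPKM (ratio 1.23).

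Of the replacement linker genes, H1-10 (chr3:129314771-129316286, minus strand), the linker variant also known as H1X, was the only replacement histone past a threshold. It stood at 68.2 FPKM in DMSO and at 30.4 FPKM in FIN56, and 6785 and 3143 counts gave a ratio of 0.445 (0.426 to 0.464). H1-2 and H1-10 stood at 11.8 and 68.2 FPKM with DMSO but at 30.8 and 30.4 with FIN56. The value of H1-2 holds only the part of its mRNA that was caught, so the levels of these genes cannot be compared directly. Of the other replacement genes, H3-5 had 9.60 and 8.08 counts, H1-7 had 0 and 1, and H1-8, the oocyte linker, had 0 in both.

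By position, the replication-dependent genes fell into clusters on chromosomes 6 and 1. The largest group, 32 genes with starts between 26.0 and 26.3 Mb of chromosome 6, had 10 genes with at least 100 counts, of which 7 were at an FPKM ratio of 1.5 or more and 1 at 1/1.5 or less. The 5 genes at 27.1 Mb included H2BC12, and 3 of the 4 with at least 100 counts were at 1.5 or more. Between 27.8 and 27.9 Mb, 16 genes were found, with 4 of at least 100 counts, 1 of them at 1.5 or more (H2BC15) and 1 at 1/1.5 or less (H4C11). On chromosome 1, between 149.8 and 149.9 Mb, 8 of 11 genes had at least 100 counts. Of these, 8 of 8 were higher with FIN56, beside 7485 of all 14247 genes at this depth, and 4 were at 1.5 or more. The 8 include H2AC18 with H2AC19, H3C14 with H3C15 and H4C14 with H4C15, pairs with the same coding bases that are not separate measurements. The summed counts gave a ratio of 1.97 (95% interval 1.90 to 2.04) for the first group, 2.83 (2.70 to 2.96) for the 5 genes at 27.1 Mb, 1.40 (1.25 to 1.57) for the 16 genes and 2.08 (1.99 to 2.17) for the 11 genes on chromosome 1. H2BC12 held most of the counts at 27.1 Mb, and the other 4 genes there had 448 and 828 counts, a ratio of 1.78 (1.58 to 2.0). H2AC1 and H2BC1 at 25.7 Mb, which are testis histones, had 0 counts.

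**Figure D4:**
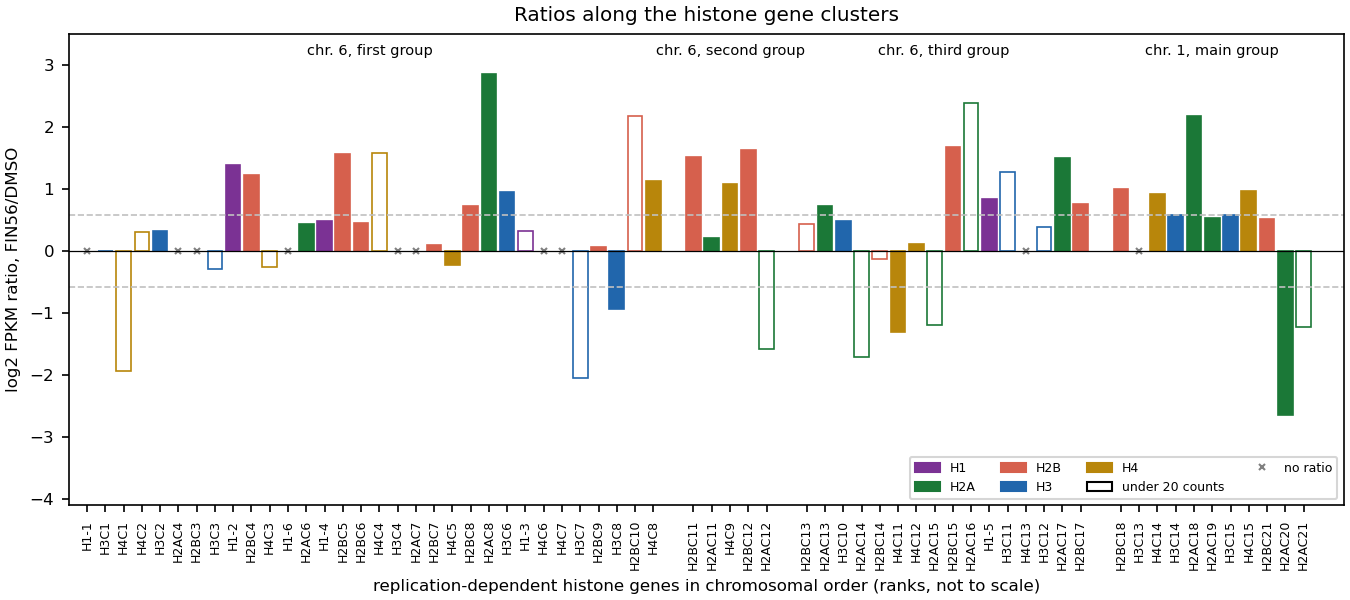
Log2 FPKM ratio, FIN56 over DMSO, of the replication-dependent histone genes in chromosomal order within 4 clusters (ranks, not distances); filled bars have at least 20 expected counts together, open bars fewer, crosses have no ratio, and dashed lines mark ratios of 1.5 and 1/1.5. Level and lower genes can stand next to each other within a cluster, as with H2BC9 at 0.060 and H3C8 at -0.93, both with gene models that run past the stem-loop. The bars of H2AC18, H2AC19 and H2AC20 rest on an uncertain split of reads.

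Neighbors on either side of a shared promoter region were not always alike in their ratios. H2A and H2B genes often stand head to head, and 11 such pairs were found, with 169 to 250 bases between their starts. In 5 pairs both genes had at least 20 counts. H2BC8 and H2AC8, 232 bases apart, had FPKM ratios of 1.66 and 7.21. H2BC4 and H2AC6, 218 bases apart, had 2.35 and 1.35, and H2BC11 and H2AC11, 247 bases apart, had 2.87 and 1.16. H2BC17 had 1.69 and H2AC17 had 2.83, while H2BC21 had 1.44 and H2AC20 had 0.160, a value that rests on the uncertain split with H2AC18 and H2AC19. With DMSO the implied effective length was 1444 bases for H2BC8 and 410 for H2AC8, 560 for H2BC4 and 1533 for H2AC6. It was 548 for H2BC11 and 2144 for H2AC11, and 2097 for H2BC21 and 395 for H2AC20. Only H2BC17 and H2AC17, at 367 and 389, both had models that did not run past the stem-loop. What the models add to these differences was not tested. The most uneven pair in level was H2BC12, with 1935 and 6186 counts, and H2AC12 on the other side of the 250 bases between them, with 6 and 2 counts.

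These 250 bases upstream are shown for H2BC12 and, for comparison, for H2BC5, H1-2 and H1-10 (RefSeq, GRCh38.p14). H2BC5 came next after H2BC12 in FPKM, H1-2 is the leading replication-dependent linker gene, and H1-10 is the lower linker gene. Other genes with higher values, such as H4C15 and H2AC18, are not shown. Capitals mark CCAAT on either strand (read as ATTGG on the other), the octamer ATTTGCAT on either strand, and TATAAA on the transcribed strand; no motif contains another.
H2BC12 (chr6:27146859-27147108, minus strand): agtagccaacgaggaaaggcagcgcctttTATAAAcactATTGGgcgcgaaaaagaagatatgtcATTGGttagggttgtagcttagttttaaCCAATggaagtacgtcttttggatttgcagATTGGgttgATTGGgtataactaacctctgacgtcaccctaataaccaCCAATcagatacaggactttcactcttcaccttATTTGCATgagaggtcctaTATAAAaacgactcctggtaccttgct
H2BC5 (chr6:26157871-26158120, plus strand): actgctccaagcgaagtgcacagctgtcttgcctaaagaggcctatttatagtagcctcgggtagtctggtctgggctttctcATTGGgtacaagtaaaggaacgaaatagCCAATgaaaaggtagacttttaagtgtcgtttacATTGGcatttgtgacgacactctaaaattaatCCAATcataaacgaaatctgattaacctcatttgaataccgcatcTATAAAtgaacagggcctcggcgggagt
H1-2 (chr6:26056471-26056720, minus strand): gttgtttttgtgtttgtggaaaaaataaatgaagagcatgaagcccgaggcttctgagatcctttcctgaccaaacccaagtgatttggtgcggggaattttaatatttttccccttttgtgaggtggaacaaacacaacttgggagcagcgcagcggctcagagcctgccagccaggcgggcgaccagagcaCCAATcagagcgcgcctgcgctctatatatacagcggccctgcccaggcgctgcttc
H1-10 (chr3:129316287-129316536, minus strand): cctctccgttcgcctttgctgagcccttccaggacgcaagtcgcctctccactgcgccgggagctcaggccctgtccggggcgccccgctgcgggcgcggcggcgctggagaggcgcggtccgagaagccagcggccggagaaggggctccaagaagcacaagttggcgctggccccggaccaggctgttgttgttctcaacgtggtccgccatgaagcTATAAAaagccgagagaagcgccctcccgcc
H2BC12 held 6 copies of CCAAT, 1 octamer and 2 of TATAAA, H2BC5 held 4, 0 and 1, H1-2 held 1, 0 and 0, and H1-10 held 0, 0 and 1. A RefSeq promoter was at hand for 62 of the 68 replication-dependent genes, and CCAAT was present in 85.5% of them, against 33.0% of all 27305 promoters. The octamer, which is bound by OCT1, was present in 14 of 17 H2B and 11 of 15 H2A promoters. It was present in 0 of 6 H1, 1 of 12 H3 and 0 of 12 H4 promoters and in 1.66% of all promoters. The windows of head-to-head H2A and H2B genes overlap, so a CCAAT or octamer match can be counted for both genes of a pair. TATAAA was found in 59.7% of the replication-dependent promoters and in 7.17% of all. CCAAT was present in 3 of 12 H4 promoters, in 50 of 50 of the other classes and in 8 of 11 replacement promoters. These matches are letters in a window and say nothing of the binding of a factor.

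Some replication-dependent genes are known to make polyadenylated mRNAs as well, and 8 of them were listed from general knowledge (H1-2, H2AC6, H2BC4, H2BC5, H2BC11, H2BC12, H2BC21 and H4C8). The list was written with earlier results of these data known and is no independent evidence of its direction. All 8 were higher with FIN56, with a median log2 FPKM ratio of 1.31, and 6 of 8 were at 1.5 or more, the exceptions being H2AC6 and H2BC21. Of the 26 replication-dependent genes with at least 100 counts, which include these 8, 15 were at 1.5 or more, with a median of 0.93. Of all genes at this depth, 5.37% were at 1.5 or more. The gene models behind the FPKM differ as well. For 36 replication-dependent genes with at least 20 counts, the effective length implied by the deposited values could be set against the distance from the start to the end of the stem-loop. In 22 genes the model was longer than that distance, as for H4C15 with an effective length of 1591 bases against 391, and in 14 it was not, as for H2BC12 with 396 against 490. The median log2 FPKM ratio was 0.65 in the 22 genes, of which 11 were at 1.5 or more, and 0.74 in the 14, of which 8 were. The implied length also differed between the libraries for some genes of the 22, as for H2BC15 above and for H2BC6, with 576 bases in DMSO and 1541 in FIN56, where the FPKM ratio was 1.37 and the count ratio 3.66.

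The genes that make, cut and carry histone mRNA and protein went both ways, mostly by less than 1.5-fold. Of 25 genes listed under histone mRNA synthesis, processing and decay, 1 was at an FPKM ratio of 1.5 or more and 0 were at 1/1.5 or less. Of all genes with at least 100 counts, 5.37% and 8.85% were. The median log2 ratio of the 25 was 0.12. The interval of the count ratio lay above 1 for 13 of the 25 and below 1 for 5, beside 36.3% and 35.7% of all genes at this depth. SLBP, which binds the stem-loop, had an FPKM of 46.5 with DMSO and 58.1 with FIN56 (ratio 1.25), and NPAT, the activator of the histone clusters, had 6.88 and 8.59 (ratio 1.25). ZNF473, a zinc finger protein of the U7 complex, had 4.22 and 6.45 (ratio 1.53), and ERI1, the nuclease that trims histone mRNA ends, had a ratio of 1.33. DBR1, an enzyme of intron lariats that was on the list although replication-dependent histone genes have no introns, had 1.34. At the other end, SYMPK, the scaffold of the cleavage complex, had 13.7 and 9.31 FPKM (ratio 0.679), and TUT4, which adds uridines to histone mRNA for decay, and MIF4GD, which joins SLBP to translation, both had a ratio of 0.715.

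Of 27 histone chaperones and their partners, which carry histones to and from DNA, 1 was at 1.5 or more and 0 at 1/1.5 or less, with a median log2 ratio of 0.0045, and the interval lay above 1 for 11 and below 1 for 13. RBBP4 had an FPKM of 73.2 and 112 (ratio 1.53), and CABIN1 and UBN1, both of the HIRA pathway for H3.3, had a ratio of 1.26. ANP32E, which removes H2A.Z, had 54.1 and 37.8 (ratio 0.697), ATRX had a ratio of 0.700 and NAP1L1, a carrier of H2A and H2B, had 0.731. By counts, ATRX was close to level, with 7868 and 7671 and a ratio of 0.937 (0.907 to 0.967). The count ratios of ANP32E and NAP1L1 were 0.692 and 0.673. Of 49 genes of S phase and DNA replication, 1 was at 1.5 or more and 2 at 1/1.5 or less, with a median log2 ratio of -0.026 by FPKM and 0.0040 by counts, and the interval lay above 1 for 21 and below 1 for 19. These counts at the thresholds are read beside the same 5.37% and 8.85% of all genes. PCNA, the sliding clamp of DNA polymerase, had 248 and 283 FPKM (ratio 1.14). CCNE2, a cyclin of S phase entry, was highest with a ratio of 1.51, followed by RFC3 at 1.27 and MCM10 at 1.25, and the lowest were TYMS at 0.660, RFC2 at 0.662 and RRM2, a subunit of ribonucleotide reductase, at 0.674. In RNA from bulk cells, more cells in S phase and more histone RNA per cell cannot be told apart.

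**Figure D5:**
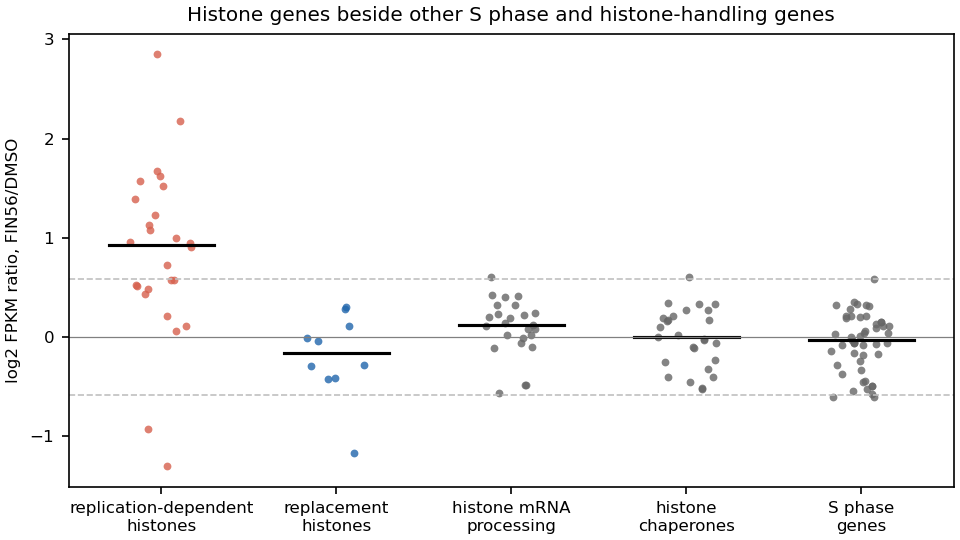
Log2 FPKM ratio, FIN56 over DMSO, of the 26 replication-dependent and 10 replacement histone genes and of 25 histone mRNA processing, 27 chaperone and 49 S phase genes, all with at least 100 expected counts together; each point is a gene, black lines are medians and dashed lines mark ratios of 1.5 and 1/1.5. The medians are 0.93, -0.16, 0.12, 0.0045 and -0.026, and the replication-dependent genes spread from -1.30 to 2.85.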

How the data were processed

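Total RNA of HSC-3 cells was made into libraries with a stranded mRNA kit, per the labels. FastQC 0.11.7, STAR 2.6.1a, RSEM 1.3.1, DESeq2 1.26.0 and the build hg38 (GRCh38) are named in the processing notes of the submitters; the annotation release is not given in the sources used here for these libraries. The authors deposited RSEM expected counts, which are not normalized and can be fractions. As FPKM, the authors scaled these for depth and effective length and kept 2 decimals. As TPM, the authors scaled them to the same sum in each library. As rlog, the authors gave log2 values that draw low counts together.

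The FPKM ratio was read against 1.5 and 1/1.5 for genes above 0 in both libraries. Counts were rounded for exact Clopper-Pearson intervals at 95%, scaled by the library totals. The intervals cover counting error only, and no molecular identifiers are named in the sources used here. The script was tested on simulated data. Histone genes that reached 100 expected counts over the libraries were named, apart from 1 that is not reported here, and of each gene list the 3 highest and the 3 lowest; SLBP, NPAT, PCNA and the histone genes with fewer counts were named after their values were seen. Gene models came from GENCODE 44 (79 genes by identifier, 2 by symbol) and promoters from RefSeq. Python 3.11.15, R 4.3.3, edgeR 4.0.16 and DESeq2 1.42.0 were used, the latter tools for scaling alone. The members and lists were chosen with earlier results of these data known. Alternatives were other scales, filters, pseudocounts of 0.1 and 1 FPKM and a fold of 2.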

Additional observations from a re-analysis of the deposited data

How the results depend on the processing

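No paired analysis was possible because there was a single library of DMSO and of FIN56, and no replicate could be left out. The 23 histone genes at an FPKM ratio of 1.5 or more numbered 3 by rlog, 14 with a pseudocount of 1 FPKM and 15 among genes with whole counts, and 16 to 26 under the other alternatives. The 10 at 1/1.5 or less numbered 0 by rlog, 6 once both FPKM had to reach 0.1, 3 with at least 10 counts in both, 3 with a pseudocount of 1 FPKM and 5 among genes with whole counts. The median log2 ratio of the replacement histones, -0.24, was -0.0028 by rlog, -0.16 with at least 10 counts in both, -0.037 and -0.026 with pseudocounts of 0.1 and 1 FPKM, and -0.29 with whole counts. That of the replication-dependent histones, 0.49, ranged from 0.015 (rlog) to 0.73. The ratio of their summed share, 2.18, was 1.96 with whole counts, 2.57 by TPM and 1.96 without H2BC12, the last chosen after seeing the data, as was the value without it at 27.1 Mb of chromosome 6, 1.78 in place of 2.83. The 36 genes with at least 100 counts kept their sign in 173 of 180 values under 5 other scales. The exceptions were H2AZ1 (0.020 by TPM, 0.023 by DESeq2 size factors, 0.010 by rlog) and H3-3B (0.0090 by library totals, 0.0069 by TMM, 0.045 by DESeq2 size factors, 0.020 by rlog). The causes were not tested, apart from the filters, which leave fewer genes, and the pseudocounts, which shrink the ratios of low genes. Depth limits the 32 replication-dependent genes with fewer than 20 counts.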

Other observations

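Histone genes that the symbols left out are given here as values. H4-16, a replication-dependent type of H4 gene that lies apart from the clusters, had 55 counts with DMSO and 127 with FIN56, a count ratio of 2.22 (95% counting interval 1.60 to 3.10). H2BU1 had 37 and 66 counts (ratio 1.71, 1.13 to 2.64), and H2AW had 182 and 259 (ratio 1.37, 1.13 to 1.66). CENPA, the H3 variant of the centromere, was lower with FIN56, at an FPKM of 41.7 and 24.6 (count ratio 0.618, 0.585 to 0.652).

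Among the 17 pseudogenes left out, 2 had more than 100 counts together. H2BC20P had 969 and 926 counts, a ratio of 0.918 (0.838 to 1.01), and H2BC19P had 752 and 621, a ratio of 0.793 (0.712 to 0.883). In both libraries the estimated counts of these 2 became whole when added together, so reads were split between them and each single ratio is uncertain. Their values stand beside a ratio of 2.69 for the summed H2B genes of the same libraries. Among the replication-dependent genes with at least 100 counts, the 5 whose stem-loop is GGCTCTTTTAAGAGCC had a median log2 FPKM ratio of 1.52, with 4 at 1.5 or more, and the 13 with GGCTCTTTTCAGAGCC had one of 0.58, with 6 at 1.5 or more. Of all genes at this depth, 5.37% were at 1.5 or more. The 4 of the 5 were H2BC12, H2BC5, H2BC4 and H2BC11, all of them H2B genes on the list of polyadenylated genes above. The remaining gene was H3C8, with a ratio of 0.524, so the stem-loop sequence cannot be told apart from class or from that list. This grouping was looked at after the values had been seen, and the difference was not tested.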
